A study of Homo sapiens with 24 samples.

Results

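The subject here is 1 comparison: human embryonic stem cells that carry a light-switchable Wnt receptor, all illuminated, grown either beside wild-type neighbours or alone. The 6 libraries were chosen by their labels out of 24 in the series: 3 from engineered cells sorted by their mCherry tag out of co-culture, called a, b and c, and 3 from engineered monoculture, replicates 1 to 3. The comparison was made across all 20322 genes that passed a filter on low values, and it asks whether illuminated engineered cells differed when wild-type cells grew among them.

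In canonical Wnt signalling, a ligand brings the co-receptor LRP6 together with Frizzled, beta-catenin escapes destruction, and TCF/LEF factors switch on targets such as AXIN2 and SP5. In human pluripotent stem cells a sustained Wnt signal leads towards primitive streak and mesoderm: TBXT and MIXL1 come on, presomitic genes such as TBX6 and MSGN1 follow, and SOX2, NANOG and the epithelial cadherin CDH1 go down. Cry2, a photoreceptor taken from plants, forms clusters in blue light. Fused to the intracellular part of LRP6, it lets light stand in for the ligand, so the engineered cells in a mixed dish can signal while their wild-type neighbours receive no such signal of their own.

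All cells were of H9, an established human embryonic stem cell line, grown in E8, a defined medium for pluripotent cells. Engineered cells carried a Cry2-LRP6 fusion joined to mCherry through a 2A peptide, with a puromycin resistance gene, and wild-type cells carried eGFP with a neomycin resistance gene. Illuminated cultures received 0.8 µW/mm2 for 48 h, and dark cultures received none. Co-cultures held engineered and wild-type cells at equal input and were separated by flow sorting before RNA was made, whereas monocultures were not described as sorted. Each biological replicate pooled 2 to 3 wells. The dark engineered cultures (3 monoculture and 3 co-culture libraries) and the illuminated wild-type cultures (3 and 3) are used below only as reference comparisons of the same change of culture. Sorting coincides with co-culture in every one of these comparisons, and neither it nor any batch of preparation, which the labels do not record, can be told apart from it. A level is a property of the whole library, so fewer cells of a type and less RNA per cell cannot be told apart either.

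Levels are given as normalised counts, that is, reads per gene divided by 1 scaling factor per library. Reads assigned to genes ran from 31807414 to 55593196 in the co-culture libraries and from 47207645 to 53054410 in the monoculture libraries. The labels held up against the transgenes. The fusion was read at 50531, 50614 and 47039 normalised counts in monoculture replicates 1, 2 and 3 and at 52164, 57703 and 61394 in co-culture libraries a, b and c. The co-culture values were all above the monoculture values, by 1.16-fold in the means (exact two-sided permutation test, p = 0.1, the smallest that 3 against 3 libraries can give). eGFP, which only the wild-type neighbours carry, was read at 29.8, 14.6 and 25.6 in the sorted libraries and at 0, 1.62 and 0 in monoculture. The sorted values amount to 0.225%, 0.110% and 0.193% of the mean eGFP level of illuminated wild-type cells sorted from co-culture.

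The 3 co-culture libraries were less alike than the 3 monoculture libraries. Library c had the fewest reads. The SD of the log2 difference between libraries over 13997 well-expressed genes was 0.43 for a against b, 0.52 for a against c and 0.34 for b against c, and it was 0.27 to 0.28 among the monoculture libraries. Against the monoculture libraries it was 0.29 to 0.35 for a, 0.32 to 0.38 for b and 0.44 to 0.48 for c, so by this measure a was nearest to monoculture and c farthest from it. Libraries b and c departed from a along the GC content of genes. Set against the monoculture mean, the log2 difference of a gene correlated with its GC content at Spearman's rho = -0.45 in library a, 0.61 in library b and 0.44 in library c, a description across genes that share the same libraries. The median GC content of the genes called higher below was 56.0%, of those called lower 48.5% and of all tested genes 48.9%, and the part of this trend in the calls was not tested beyond the fit that removes it. Since library a stood apart from b and c in its GC trend, results are also given without it, which leaves out the co-culture library nearest to monoculture.

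**Figure D1:**
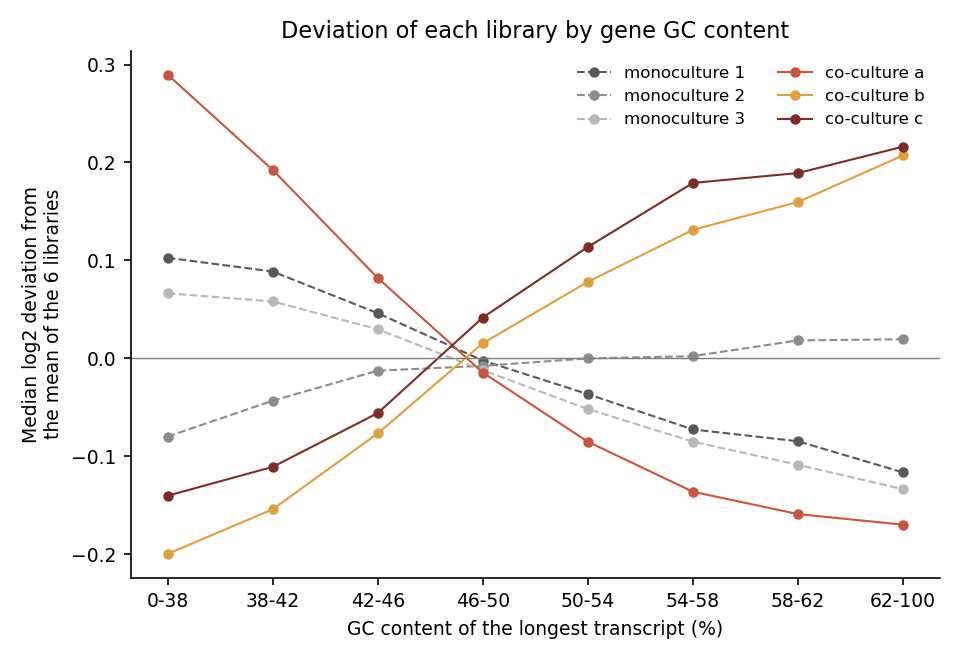
Median log2 deviation of each library from the mean of the 6 libraries (vertical axis) for genes grouped by the GC content of their longest transcript in percent (horizontal axis); dashed lines are monoculture replicates 1 to 3 and solid lines are co-culture libraries a to c. Co-culture library a falls from 0.29 in the genes of lowest GC content to -0.17 in those of highest, while b rises from -0.20 to 0.21 and c from -0.14 to 0.22.

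No gene of the mesoderm lists passed the threshold between the cultures, and a small set of other genes did. By limma on log2(normalised count + 1), at a Benjamini-Hochberg adjusted p under 0.05, 147 of 20322 genes (0.723%) passed the threshold: 49 (0.241%) were higher and 98 (0.482%) lower in co-culture. Most changes were modest, with a median size of 0.83 on the log2 scale, and 18 of the higher and 42 of the lower genes differed by more than 1. In 141 of the 147 genes the 3 co-culture values lay wholly outside the range of the 3 monoculture values, where 10.8% of all tested genes did so (5.77% with co-culture higher and 5.05% with it lower). Protein-coding genes made up 120 of the 147, with 9 long intergenic and 7 antisense transcripts, the latter uncertain because it is not known here whether counting used strand.

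These calls rest on a spread estimated over all 24 libraries. When the 6 libraries of the comparison were fitted alone, limma called 0 of 17604 genes (smallest adjusted p = 0.136, with 1066 at an unadjusted p under 0.05) and edgeR called 0 (1131 at an unadjusted p under 0.05). Without library a the count rose to 3455 (2142 higher, 1313 lower), which held all 147, or 17.0% of all tested genes, but library a itself lay on the called side of the monoculture mean in only 34.7% of those 3455 genes. On the recovered reads edgeR called 71 genes and DESeq2 called 219, and DESeq2 put 103 higher and 116 lower, a share of 47.0% higher against 33.3%. Each of the 147 had the same sign by edgeR and DESeq2. For 44 of them (12 higher, 32 lower) the call held when any 1 of the 6 libraries was left out, by both other tools on all 24 libraries, and after a trend on GC content and length was removed. Such calls are termed stable below, which does not cover the fits of the 6 libraries alone. In a fit of the 12 engineered libraries, which called 20 genes, 17 of the 44 (4 higher, 13 lower) were called. Of the stable genes named below, FOS, FOSB, B3GAT2, ITGA3, ASNS, NANOG, LHFPL6, CAV1 and FHOD1 were not called in that fit.

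**Figure D2:**
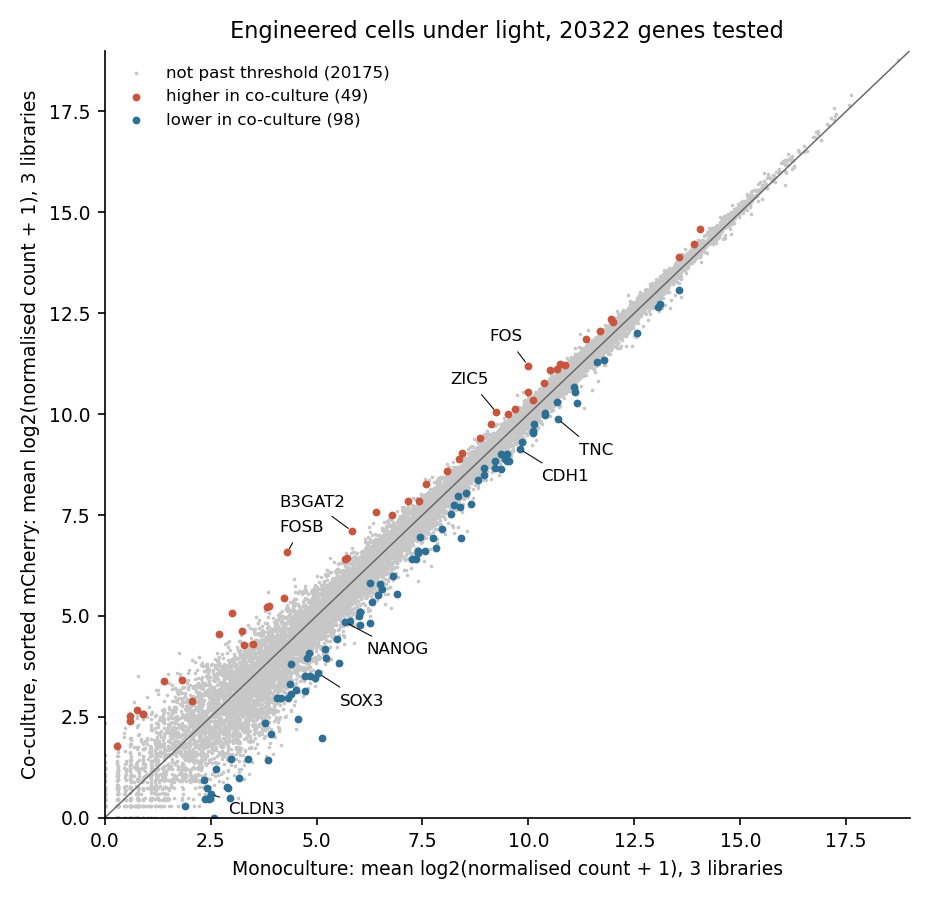
Mean log2(normalised count + 1) of 3 monoculture libraries (horizontal axis) against that of 3 sorted co-culture libraries (vertical axis) for the 20322 genes tested in illuminated engineered cells; red and blue points are genes past the threshold and the line marks equal levels. The 49 higher and 98 lower genes form thin margins on either side of a cloud that follows the line, and several named genes are marked.

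Mesoderm and Wnt target genes gave no call. The 8 mesoderm markers summed to 280065 to 289337 normalised counts in monoculture and to 279696 to 321266 in co-culture, ranges that overlap, and the same 8 summed to only 219 to 272 in the dark engineered libraries of both cultures. TBXT, the T-box factor of the primitive streak, was read at 27769, 30093 and 27110 in monoculture and at 28033, 29884 and 25382 in co-culture. Its log2 difference was -0.03 (95% interval -0.95 to 0.89, limma adjusted p = 0.994). The groups overlapped, and a change as large as 1 lay just outside the interval. That interval takes its spread from all 24 libraries, among them dark engineered monoculture, where TBXT stood at 5.70 ± 2.81 (SD, n = 3). Values near 0 scatter widely on the log2 scale, so for genes silent elsewhere the interval can exceed the spread of these 6 libraries. MIXL1, a homeobox factor of the streak, differed by -0.03 (-0.45 to 0.40), and TBX6, a T-box factor of presomitic mesoderm, by 0.04 (-0.27 to 0.35).

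Genes that report the strength of Wnt signalling were likewise spread around 0. None of the 15 listed feedback and target genes passed the threshold, with a median log2 difference of 0.02 beside 0.02 over all tested genes. AXIN2, a scaffold that feeds back on the pathway, was read at 6480, 6329 and 6112 in monoculture and at 7175, 7048 and 3911 in co-culture. Library c was the lowest of the 6 and a and b were the highest, and the log2 difference was -0.11 (-0.42 to 0.20, limma adjusted p = 0.791). DKK1, a secreted Wnt antagonist, showed the same split, with 63147 and 66776 in a and b, 31612 in c and 44414 to 48029 in monoculture. LEF1, a TCF/LEF factor, differed by -0.10 (-0.57 to 0.36) and NKD1, an intracellular Wnt inhibitor, by 0.02 (-0.22 to 0.26). For SP5, at 2.71 ± 2.18 in dark engineered monoculture (SD, n = 3), the interval ran from -1.35 to 1.78, too wide to bound a doubling.

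Lists of related programmes gave no call either. None of 12 primitive streak genes, 12 paraxial mesoderm genes, 13 lateral and cardiac mesoderm genes, 15 BMP pathway genes or 14 mesenchymal genes passed the threshold, and with 0.723% of all tested genes called, 0 calls in lists of this size differ little from that share. For 6 of the 12 streak, 5 of the 12 paraxial and 2 of the 13 lateral and cardiac genes the 95% interval lay within 1 log2 unit of 0. Larger differences were not bounded in the rest by this fit, whose spread includes dark libraries with little mesoderm expression. Without library a, 1 streak gene was lower, 2 paraxial genes were higher and 2 lateral and cardiac genes were lower. EOMES, a T-box factor of the streak, was read at 4936, 4713 and 4939 in monoculture and at 5912, 6294 and 5153 in co-culture. Its groups did not overlap, and its difference of 0.25 had an interval from -0.83 to 1.32 (limma adjusted p = 0.883). In dark co-culture EOMES stood at 4.07 ± 4.72 (SD, n = 3), a spread that enters this interval. CDH2, the cadherin of mesenchymal cells, differed by -0.01 (-0.16 to 0.14), and SNAI1, a repressor of epithelial genes, by -0.14 (-0.46 to 0.19). BMP4 differed by 0.12 (-0.20 to 0.43) and WNT3 by 0.17 (-0.12 to 0.46). In the illuminated wild-type cells, which share no library with this comparison, WNT3 was higher in co-culture by 2.83 and TBXT by 3.83 on the log2 scale (limma adjusted p = 1.16e-12 and 1.93e-06). Among genes with a mean of at least 100, 96.2% had a 95% interval within 1 log2 unit of 0 on both sides, and the median distance from the estimate to either bound was 0.23.

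Immediate early genes, which are transcribed within minutes of a stimulus without new protein synthesis, included FOS and FOSB, both well above their monoculture levels in co-culture. Of 19 listed, 3 were higher in co-culture, where 0.241% of all tested genes were, and none was lower, with a list median of 0.20 beside 0.02 over all tested genes. The list median was 0.09 with the GC and length trend removed. It was 0.19 in the dark engineered comparison and 0.52 in the illuminated wild-type one. FOS and FOSB code for subunits of the AP-1 transcription factor, and both rose. MYC was the third. RefSeq's promoter table on GRCh38.p14 held 15 of the 19 genes, FOS and FOSB but not MYC, and the 250 bases before the start of these 2 are shown because both carry the core of a cAMP response element, TGACGT, close to the start. The FOS stretch is chr14:75278578-75278827 and the FOSB stretch chr19:45467746-45467995, both on the plus strand, with the TGACGT in capitals.
FOS: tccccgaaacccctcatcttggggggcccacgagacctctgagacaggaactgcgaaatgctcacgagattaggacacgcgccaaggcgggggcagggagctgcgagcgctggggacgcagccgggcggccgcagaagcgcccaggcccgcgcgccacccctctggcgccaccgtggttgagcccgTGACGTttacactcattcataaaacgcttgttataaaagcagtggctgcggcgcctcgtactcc
FOSB: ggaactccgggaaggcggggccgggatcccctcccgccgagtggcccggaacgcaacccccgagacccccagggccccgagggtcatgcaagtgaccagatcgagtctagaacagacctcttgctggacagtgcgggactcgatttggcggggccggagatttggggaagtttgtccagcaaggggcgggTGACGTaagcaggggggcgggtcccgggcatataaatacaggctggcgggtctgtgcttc
The match begins 64 bases before RefSeq's start in FOS and 60 bases before it in FOSB. The FOS coordinates given below are from another annotation, in which the gene starts inside the printed stretch, nearer to the match. Searched on both strands in windows of 250 bases, TGACGT was present in 5 of the 15 listed promoters and in 7.1% of all 35116 promoters of the table. Among the 5 were also DUSP1, EGR1 and JUND, which did not pass the threshold here. A match is a description of the sequence and not a bound site.

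FOS (chr14:75278774-75282230 on GRCh38, plus strand) was read at 992, 1104 and 958 in monoculture and at 3224, 1813 and 2241 in co-culture. Every co-culture library lay above every monoculture library, and library a was the highest. The log2 difference was 1.21 ± 0.23 (SE), with a limma adjusted p of 0.00786, and it was 0.99 without library a (0.00825). FOS was also higher in co-culture in dark engineered cells, by 1.71, and in illuminated wild-type cells, by 2.33 (limma adjusted p = 0.00126 and 1.60e-07), so FOS passed the threshold in all 3 comparisons made here. It was the only one of the 147 genes past the threshold in the dark engineered comparison.

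FOSB (chr19:45467995-45475179, plus strand) was read at 16.3, 15.4 and 26.6 in monoculture and at 229, 50.9 and 72.2 in co-culture. The groups did not overlap, though library a was far above b and c. Its log2 difference was 2.27 ± 0.43 (limma adjusted p = 0.00697) and 1.64 without library a (0.00804), and the rises in dark engineered cells (0.49) and in wild-type cells (0.68) did not pass the threshold. MYC, a growth-promoting factor and a Wnt target in many cells, was read at 1576, 1750 and 1551 in monoculture and at 2026, 2301 and 2391 in co-culture. Its rise was small, with no overlap, at 0.46 ± 0.08 (limma adjusted p = 0.00317), with a difference of 0.34 in dark engineered cells that did not pass (0.25), while in wild-type cells MYC fell by 0.25 (0.0354). FOS, FOSB and MYC were all stable.

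Other members of the immediate early list varied in direction. EGR1, a zinc-finger factor named here after its values were seen, was read at 5203, 5327 and 5145 in monoculture and at 9989, 7390 and 6812 in co-culture. The groups did not overlap, but the difference of 0.61 had an interval from -0.34 to 1.56 in the shared fit (limma adjusted p = 0.605). JUN, the partner of FOS in AP-1, differed by -0.20 (-0.54 to 0.14) and overlapped. Without library a, 6 of the 19 were higher and 1 was lower, where 10.5% and 6.46% of all tested genes were.

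A few epithelial genes were lower in co-culture. Of 18 listed epithelial junction genes, 4 were lower (CLDN3, CDH1, EPCAM and ESRP1), where 0.482% of all tested genes were, and none was higher. The list median was -0.09 and the highest member stood at 0.04. CDH1, which codes for E-cadherin, the adhesion molecule of epithelial sheets (chr16:68737225-68835548, plus strand), was read at 903, 980 and 784 in monoculture and at 632, 576 and 486 in co-culture. All co-culture values lay below all monoculture values. The log2 difference was -0.66 ± 0.09 (limma adjusted p = 0.000183) and -0.74 without library a, and the call was stable.

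In the dark the same cells held far more CDH1, at 11736 ± 187 (SD, n = 3) in monoculture and 11223 ± 652 in co-culture, without a call between the cultures. The dark and light comparisons share no library. EPCAM, an epithelial adhesion molecule, was read at 1057, 1083 and 1238 in monoculture and at 831, 835 and 911 in co-culture. These values did not overlap and gave a log2 difference of -0.39 ± 0.08 (limma adjusted p = 0.0138), lost without monoculture replicate 3 (0.101) and without co-culture library b (0.0548). ESRP1, a splicing factor of epithelial cells, fell by 0.33 on the log2 scale (limma adjusted p = 0.00967), a call lost without monoculture replicate 1 (0.0873) and without co-culture library b (0.0665). CLDN3, a tight junction claudin, was near silence under light, with 11.8, 1.62 and 4.44 in monoculture and 0.877, 0.809 and 0 in co-culture, too few reads for a fold, and it was not called by edgeR (adjusted p = 0.119) or DESeq2 (0.108).

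RAB25, ERBB3 and PROM1 are outside the list and were picked from the genes called lower, so they lend it no support. RAB25, a small GTPase of epithelial recycling, was read at 198, 143 and 181 in monoculture and at 108, 125 and 137 in co-culture, a log2 difference of -0.49 (limma adjusted p = 0.0257). ERBB3, a receptor tyrosine kinase, fell by 0.30 (0.0314), and PROM1, a membrane glycoprotein of stem and epithelial cells, fell by 0.48 (0.0267). None of these 3 passed by edgeR, and each was lost without monoculture replicate 1 (limma adjusted p = 0.156, 0.107 and 0.0871 for RAB25, ERBB3 and PROM1) and in at least 1 other leave-out. The repressors of epithelial genes were not called: ZEB1 was read at 779, 880 and 784 in monoculture and at 1030, 575 and 575 in co-culture, and SNAI2 differed by 0.13 (-0.69 to 0.95).

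Of the 14 listed core pluripotency genes only NANOG was called. NANOG, a homeobox factor of pluripotent cells (chr12:7787794-7799141, plus strand), was read at 49.8, 64.0 and 39.0 in monoculture and at 30.7, 27.5 and 25.6 in co-culture. The co-culture values were the lower 3 of the 6. The log2 difference was -0.82 ± 0.11 (limma adjusted p = 0.000385) and -0.89 without library a. NANOG had only 264 reads over the 6 libraries. The SE comes from a spread shared with libraries of far higher NANOG, so it can understate the counting noise at this level. On the recovered reads the adjusted p was 0.0169 by edgeR and 0.00657 by DESeq2. In the dark the levels were 3544 ± 213 in monoculture and 3843 ± 280 in co-culture (SD, n = 3), a difference of 0.12 without a call, and in illuminated wild-type cells NANOG was higher in co-culture by 0.52 (0.00344).

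NANOG is abundant in the wild-type neighbours, so a trace of them in the sorted cells would add to its level. At the eGFP share of each library, the neighbours' NANOG would amount to 13.9, 6.80 and 11.9 of the 30.7, 27.5 and 25.6 read. SOX2, another pluripotency factor, was read at 45.2, 34.0 and 36.4 in monoculture and at 42.1, 50.9 and 55.7 in co-culture, where the neighbours' share would be 16.7, 8.16 and 14.4. The SOX2 log2 difference of 0.36 ± 0.09 did not pass (limma adjusted p = 0.0666). It passed in limma with the GC and length trend removed (0.0237) and in 2 of 6 leave-outs. By edgeR (0.392) and DESeq2 (0.349) it did not pass. POU5F1, which stays expressed in early mesoderm, differed by 0.24 (0.04 to 0.45, limma adjusted p = 0.288).

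Without library a, 3 of the 14 core pluripotency genes were higher and 5 lower, where 10.5% of all tested genes were higher and 6.46% lower. ESRG, a long non-coding transcript of pluripotent cells named after its values were seen, was read at 2248, 2433 and 1964 in monoculture and at 1639, 1300 and 1544 in co-culture. It fell by 0.57 on the log2 scale with no overlap (limma adjusted p = 0.000324), a stable call. TFCP2L1, a factor of naive pluripotency, went the other way at a low level, from 11.8, 13.0 and 7.10 to 21.9, 18.6 and 16.6, a log2 difference of 0.82 (limma adjusted p = 0.0387) that edgeR did not call (0.239) and that was lost without monoculture replicate 3 (0.224) and co-culture library b (0.0764).

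**Figure D3:**
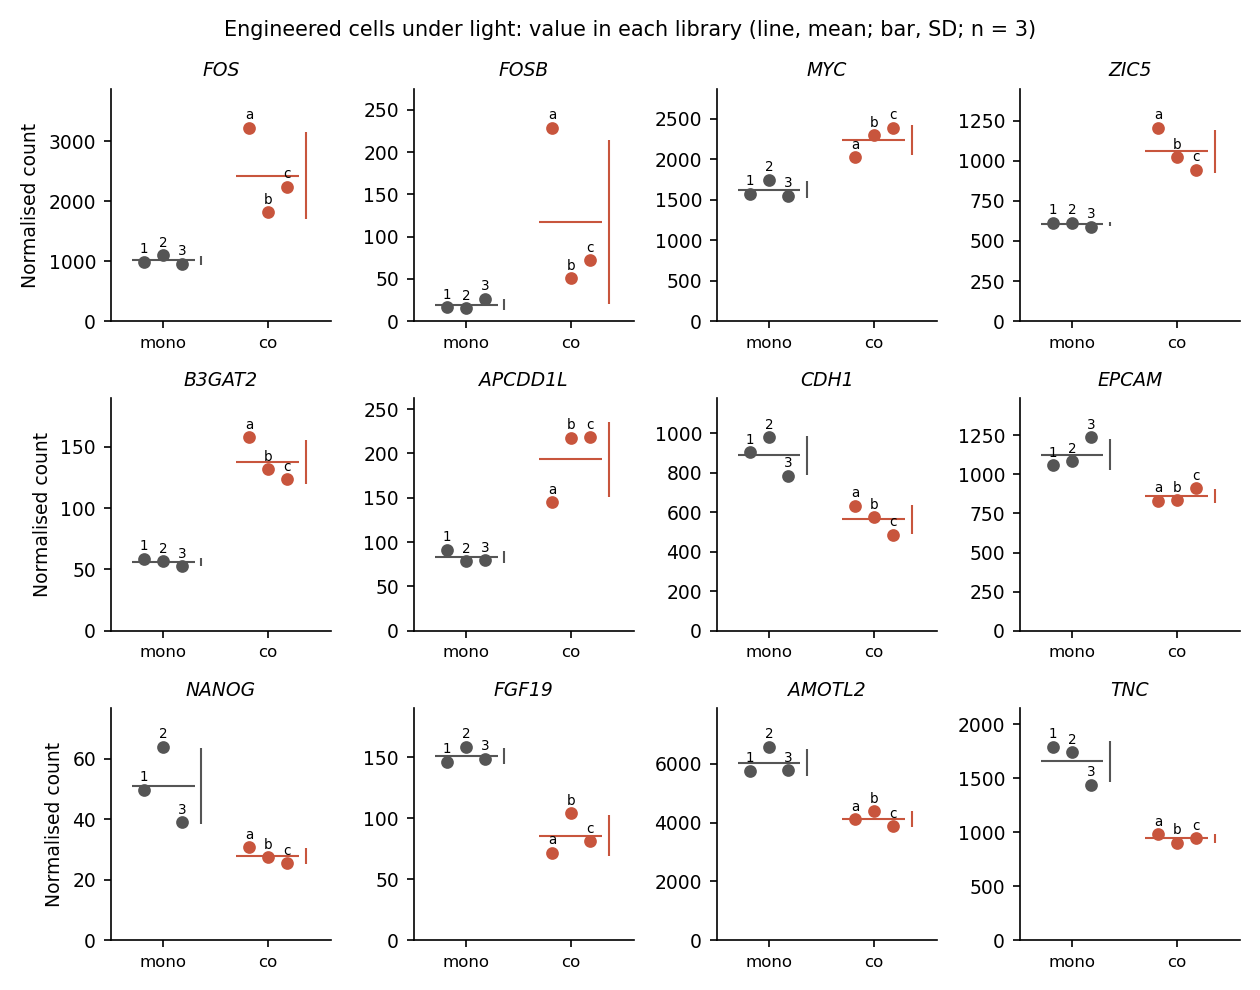
Normalised count of 12 genes (vertical axes from 0) in monoculture replicates 1 to 3 and sorted co-culture libraries a to c of illuminated engineered cells; points are libraries, horizontal lines are means and vertical bars are SDs (n = 3). In each panel the 2 groups do not overlap, and FOSB shows library a, at 229, far above b and c.

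For 6 of the 147 genes, FOXJ1, ZIC5, STC1, NANOG, FGF19 and TRBC2, the difference was itself distinct from that in dark engineered cells and from that in illuminated wild-type cells. These tests share the 6 libraries with the comparison, so they are not independent of it, and the test against dark cells called 0 genes in a fit of only the libraries concerned (the 12 engineered libraries) and without dark co-culture library c. ZIC5, a zinc-finger factor of the early neural plate (chr13:99962964-99971909, minus strand), was read at 614, 615 and 589 in monoculture and at 1206, 1024 and 945 in co-culture. It rose by 0.80 ± 0.08 on the log2 scale (limma adjusted p = 4.33e-06), with no overlap and a stable call. Its neighbour ZIC2, which shares that role and lies close by on the same chromosome, rose by 0.36 ± 0.08 (limma adjusted p = 0.0271), a call lost without monoculture replicate 1 (0.116), replicate 3 (0.091) and co-culture library b (0.0953). The difference of ZIC5 was 0.21 in the dark and 0.06 in wild-type cells, neither past the threshold.

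FGF19, a secreted growth factor that acts through FGFR4 (chr11:69698232-69704642, minus strand), was read at 147, 159 and 149 in monoculture and at 71.9, 104 and 81.3 in co-culture. The groups were well apart. FGF19 fell by 0.83 ± 0.12 (limma adjusted p = 0.00085), a stable call, whereas it was higher in co-culture by 0.57 in wild-type cells (limma adjusted p = 0.00296), with a difference of 0.38 in dark cells (0.67). STC1, a secreted glycoprotein involved in calcium and phosphate handling, was read at 469, 573 and 644 in monoculture and at 1024, 795 and 790 in co-culture. It rose by 0.63 ± 0.13 (limma adjusted p = 0.0138), lost without monoculture replicate 1 (0.109), while its difference was -0.36 in the dark and -0.85 in wild-type cells. FOXJ1, a factor of motile cilia named after its values were seen, was read at 11.8, 13.8 and 14.2 in monoculture and at 31.6, 44.5 and 34.6 in co-culture. It rose by 1.40 ± 0.16 with no overlap (limma adjusted p = 3.3e-05, edgeR 0.00154, DESeq2 7.62e-05), a stable call, and fell by 2.78 in wild-type cells.

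The naming rule and a choice made after values were seen brought in several genes of matrix, actin and mechanical signalling, which were called in both directions. TNC, which codes for the matrix glycoprotein tenascin C and was named after its values were seen, was read at 1793, 1743 and 1441 in monoculture and at 980, 903 and 945 in co-culture. It fell by 0.81 ± 0.14 (limma adjusted p = 0.00369) with a clear gap between the groups, with a difference of -0.42 in the dark that did not pass (0.67), and it was higher in co-culture in wild-type cells, by 0.82. AMOTL2, an angiomotin that binds YAP and is itself a YAP target, was read at 5769, 6579 and 5774 in monoculture and at 4104, 4391 and 3866 in co-culture. It fell by 0.55 ± 0.10 (limma adjusted p = 0.00502), the only call among 12 listed YAP and TEAD targets, with a difference of -0.43 in the dark (0.25). TAGLN, a smooth muscle actin-binding protein, fell by 0.39 (0.0408, lost without any of the monoculture replicates at 0.066 to 0.145, and -0.46 in the dark at 0.071) and CAV1, the coat protein of caveolae, by 1.00 (limma adjusted p = 0.00317), both named after their values were seen. FHOD1 and HMCN2, also named after their values were seen, were higher. FHOD1, a formin that acts on actin, was read at 1298, 1395 and 1274 in monoculture and at 1595, 1813 and 1886 in co-culture, a log2 difference of 0.41 with no overlap and a stable call (limma adjusted p = 0.00201). HMCN2, a hemicentin of the matrix, was read at 180, 240 and 161 in monoculture and at 222, 356 and 363 in co-culture, a difference of 0.68 (limma adjusted p = 0.0468) that edgeR did not call (0.0762).

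The matrix lists held no call, while TNC and HMCN2, called above, are outside them. None of 18 collagens and matrix genes and none of 13 matrix proteases and inhibitors passed. Of 12 integrins, ITGA3, the laminin-binding alpha 3 chain, rose, from 451, 491 and 445 to 586, 787 and 689. Its log2 difference was 0.56 ± 0.09 with no overlap (limma adjusted p = 0.0025), a stable call. PDGFRA differed by -0.06 (-0.87 to 0.75) and CXCR4 by 0.37 (-0.26 to 1.01).

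Other rises by the naming rule were in genes of modest level. B3GAT2, a glucuronyltransferase of glycan synthesis, was read at 58.8, 56.7 and 52.3 in monoculture and at 158, 132 and 123 in co-culture, a log2 difference of 1.28 ± 0.23 (limma adjusted p = 0.00439). APCDD1L, named for its likeness to the Wnt inhibitor APCDD1, was read at 91.4, 78.6 and 79.9 in monoculture and at 145, 218 and 218 in co-culture, a difference of 1.18 ± 0.18 (limma adjusted p = 0.00126). Both pairs of groups were apart and both calls were stable. APCDD1 itself, a Wnt target that is not on the fixed list, differed by 0.18 without a call. DBP, a clock-controlled transcription factor, rose by 0.71 (0.0462), and the call was lost without any of the 3 monoculture replicates (0.0776 to 0.171) and without co-culture library b (0.227).

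Among genes whose higher group averaged 100 or more, the largest falls included CYP1B1, DMD, LHFPL6 and TXNIP. LHFPL6 was read at 151, 169 and 166 in monoculture and at 99.1, 102 and 58.7 in co-culture, and fell by 0.94 ± 0.17 (limma adjusted p = 0.00511), a stable call. In CYP1B1, a cytochrome P450 enzyme, and DMD, which codes for dystrophin, library c was the lowest and library a the nearest to monoculture. CYP1B1 went from 140, 94.8 and 122 to 79.8, 56.6 and 21.1 (log2 difference -1.34, limma adjusted p = 0.0235), and DMD fell by 0.95 (0.0387). The DMD call was lost in all leave-outs but that of library a (highest without library c, 0.221). The CYP1B1 call was lost without monoculture replicate 1 (0.11), replicate 3 (0.0746) and co-culture library c (0.0791). An unnamed transcript, ENSG00000280143, fell by 1.13 (limma adjusted p = 0.00697), lost without monoculture replicate 1 (0.0547). It lies at chr11:117204967-117210292, just after TAGLN (chr11:117199321-117204782) on the same plus strand. Whether these 2 calls are separate was not tested.

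Few stress and metabolic genes were called. TXNIP, a glucose-responsive inhibitor of thioredoxin, was read at 2143, 2258 and 2457 in monoculture and at 993, 1000 and 1883 in co-culture. Library c lay much nearer to monoculture than a and b did, and the fall of 0.89 (limma adjusted p = 0.0306) was lost without library b (0.156) and without any of the monoculture replicates (0.0684 to 0.117). In the dark the TXNIP difference was -0.76 and did not pass (0.418). DNAJB1, a cochaperone of HSP70, rose by 0.39 (limma adjusted p = 0.0199) as the only call among 12 heat shock chaperones, lost without monoculture replicate 1 (0.106) and co-culture libraries b (0.103) and c (0.101). DDIT4, an inhibitor of mTORC1 signalling, rose by 0.57 (limma adjusted p = 0.0321), lost without library b (0.165) and without any monoculture replicate (0.0601 to 0.136), and ASNS, which codes for asparagine synthetase, fell by 0.39 (0.00196).

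ASNS went from 8658, 8554 and 9352 to 6333, 6787 and 7125, with no overlap and a stable call, while the other 13 listed genes of the unfolded protein and amino acid response other than DDIT4 were not called. None of 18 cytosolic ribosomal proteins passed, though all 18 differences were above 0, at 0.06 to 0.21 on the log2 scale with a median of 0.11. Without library a, 9 of the 18 were higher, beside 10.5% of all tested genes. RPL28, a ribosomal protein outside the list named after its values were seen, was read at 15163, 18289 and 17901 in monoculture and at 18924, 26974 and 29657 in co-culture. Its groups did not overlap, and it rose by 0.54 (limma adjusted p = 0.048, edgeR 0.0455), a call that held in only 1 of 6 leave-outs. TRIM22, an interferon-induced ubiquitin ligase named after its values were seen, was read at 67.0, 68.1 and 58.6 in monoculture and at 33.3, 21.8 and 25.6 in co-culture. It fell by 1.25 ± 0.12 (limma adjusted p = 4.8e-06, edgeR 0.000525, DESeq2 3.98e-06) with a stable call. As for NANOG, the SE is shared with libraries of far higher level and can be too small. None of 15 listed interferon and antigen presentation genes passed. Of the 38 lists, 27 held no call, and over all lists 8 genes were higher and 10 lower among 487 tested, 3.7% beside 0.723% of all tested genes. The lists were written with earlier results of these data known, so the larger share is no independent result.

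Markers of other cell types were checked in the same 6 libraries. CER1, a secreted antagonist of NODAL, BMP and Wnt made by anterior endoderm and also by nascent mesoderm, was read at 2535, 2271 and 2358 in monoculture and at 4306, 4122 and 3839 in co-culture. The groups did not overlap, but the log2 difference of 0.78 (0.35 to 1.20) did not pass (limma adjusted p = 0.0796). It passed by edgeR (0.00558) and DESeq2 (1.97e-05) on all 24 libraries and with the GC and length trend removed (0.0458). Among the 6 leave-outs it passed only without library a (0.0334). The defining endoderm factors were near 0, with SOX17 at 0.81 to 8.77 and FOXA2 at 0.877 to 5.66 normalised counts over the 6 libraries.

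Of 4 fibroblast markers, COL1A1 and COL3A1 were in the table, and they summed to 5957 to 7533 in monoculture and 7555 to 9165 in co-culture, without overlap. COL1A1 overlapped between the cultures, while COL3A1 did not, at 1971 to 2497 against 2898 to 3490, and was not called (limma adjusted p = 0.674). DCN and LUM, the other markers, had no entry, where the lowest entry held 10 reads over all 24 libraries. In dark engineered cells COL1A1 and COL3A1 summed to 4179 to 4430 in monoculture and 3761 to 4240 in co-culture. The part of fibroblasts in the results was not tested. PAX6, the neural ectoderm factor, had no read in any of the 6. Endothelial and blood markers summed to 7.24 to 23.1 in monoculture and 6.47 to 9.03 in co-culture. Amnion markers, nearly all GATA3, summed to 132 to 183 in monoculture and 95.6 to 117 in co-culture. SOX3, a neural and pluripotency factor, fell from 39.8, 39.7 and 20.4 to 23.7, 8.90 and 6.02, a log2 difference of -1.46 (limma adjusted p = 0.00811) that edgeR did not call (0.0752) and that was lost without monoculture replicates 1 (0.0624) and 2 (0.0605) and co-culture library c (0.0587). IGFBP3 fell to 1.75, 0 and 0 from 7.24, 4.86 and 2.66 (limma adjusted p = 0.00257), too few reads for a fold and not called by edgeR (0.143).

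The same change of culture was tested in dark engineered and in illuminated wild-type cells. In the dark 3 genes passed (0.0148%; 0.00984% higher and 0.00492% lower), and in illuminated wild-type cells 2820 did (13.9%; 8.02% higher and 5.86% lower). These counts have no fixed order: fitted on their own libraries by limma, the comparisons gave 0 calls in illuminated engineered, 64 in dark engineered and 1088 in wild-type cells. Of the 147 genes, 58 also passed in wild-type cells, 35 with the same sign and 23 with the opposite sign. Besides FOS, those of the same sign included DDIT4 (0.57 in wild-type cells), ITGA3 (0.33), EPCAM (-0.28), ASNS (-0.22), TRIM22 (-0.85), LHFPL6 (-1.48) and SOX3 (-0.96). Those of the opposite sign included NANOG, CDH1, MYC, FGF19, STC1, FOXJ1, TNC, TAGLN, CAV1, ERBB3 and APCDD1L. The difference in illuminated engineered cells departed from that in dark ones in 13 genes (0.064%; 0.0246% higher and 0.0394% lower), 9 of them among the 147, and from that in wild-type cells in 1061 genes (5.22%; 2.27% higher and 2.95% lower), 70 of them among the 147. Both of these tests use the 6 libraries of the comparison. The count of 13 became 0 when only the libraries concerned were fitted by limma (smallest adjusted p = 0.282, 798 at an unadjusted p under 0.05), 80 without co-culture library a, and 0 without dark co-culture library c.

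**Figure D4:**
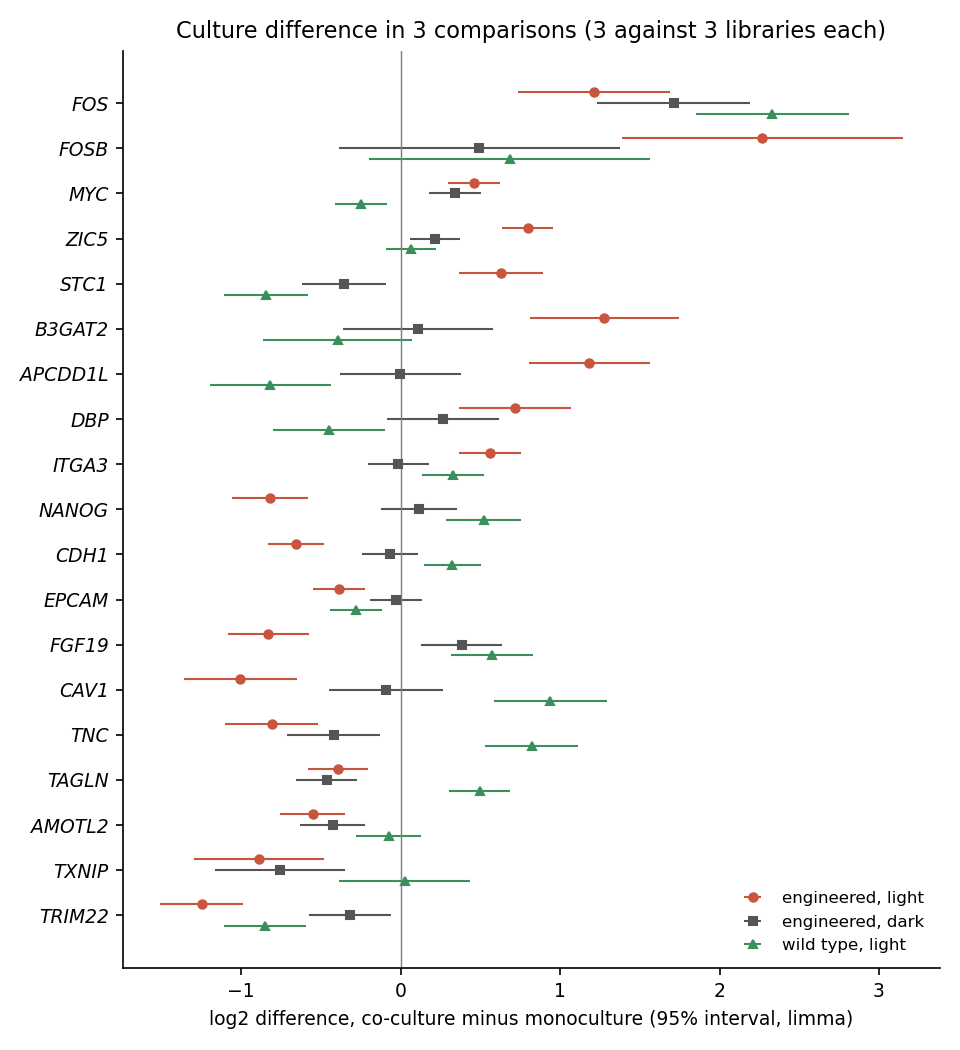
Log2 difference between co-culture and monoculture with its 95% interval from limma (horizontal axis) for 19 genes in illuminated engineered cells (circles), dark engineered cells (squares) and illuminated wild-type cells (triangles), 3 against 3 libraries each. FOS is above 0 in all 3 comparisons, while NANOG, CDH1, CAV1 and TNC are below 0 in illuminated engineered cells and above 0 in wild-type cells.

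**Figure D5:**
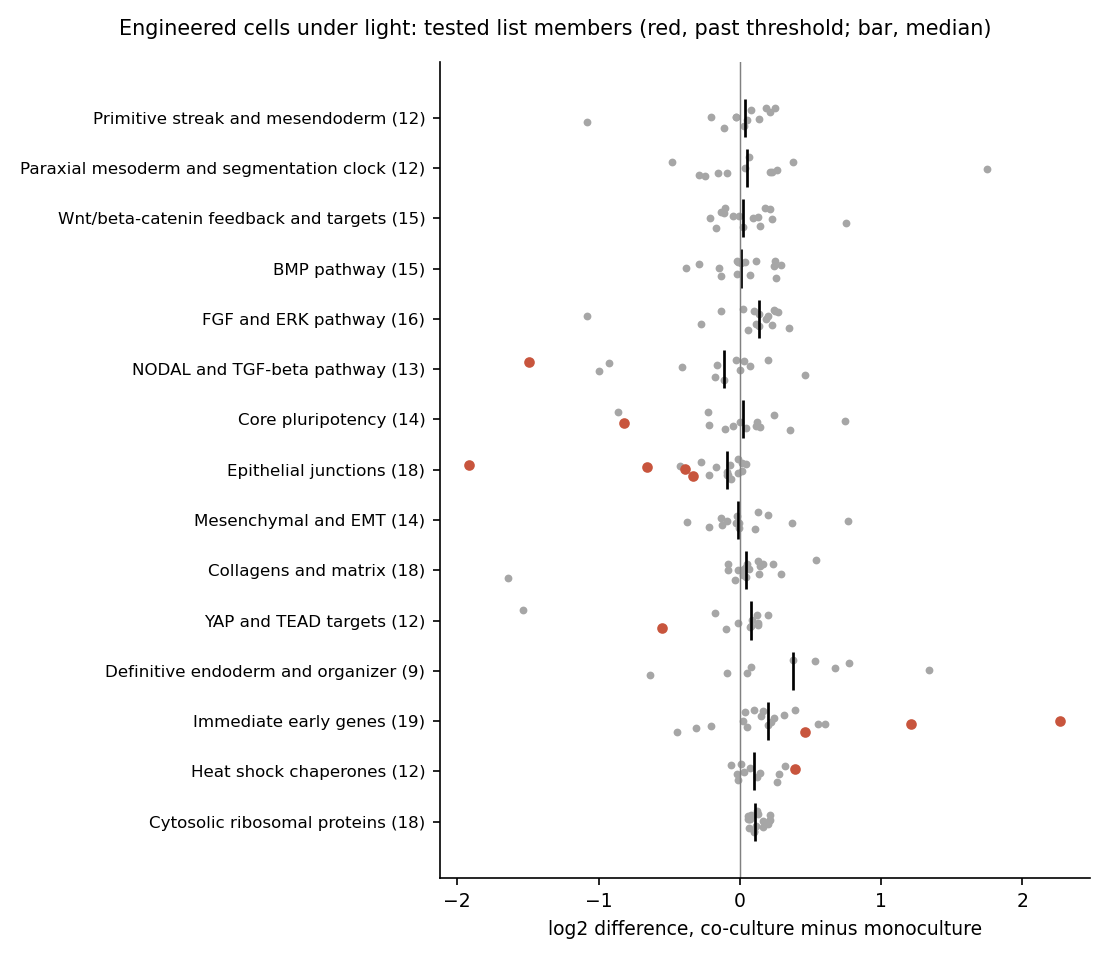
Log2 difference between co-culture and monoculture of illuminated engineered cells (horizontal axis) for the tested members of 15 gene lists, with the number tested in brackets; red points passed the threshold and bars are list medians. The mesoderm and Wnt lists are centred near 0 with no red point, the epithelial junction list has 4 red points below 0 and the immediate early list has 3 above 0.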

How the data were processed

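RNA of 24 libraries (8 groups of 3) was sequenced after a stranded poly(A) library preparation, per the labels' protocols. The submitters' processing notes name FastQC, cutadapt, Bowtie2, STAR, HTSeq, DESeq and GRCh38, while a header of the deposited sample table names hg19 with 4 added construct genes. Coordinates of genes are GRCh38, matched by Ensembl ID. The authors deposited a signal table of normalised counts for 28301 features. Every value was a whole multiple, within 0.01 reads, of 1 factor per library (100% of values), so read counts were recovered. The deposited sample table also gives read counts, an RNA integrity score and percent GC and alignment, and its rows for co-culture libraries, which match no single sample, were not used.

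Groups follow the titles; the genotype tags of the monocultures say the opposite, and the construct reads go with the titles. Co-culture columns name only a group, so libraries a, b and c carry no replicate number. Nothing shows that replicates came from separate starting cultures beyond the pooled wells, so p-values measure the spread between these libraries, and no batch is recorded, so none can be told apart from co-culture.

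limma 3.58.1 (R 4.3.3) was fitted with a trend to log2(normalised count + 1), 1 mean per group, over all 24 libraries, for 20322 genes with at least 10 in 3 or more libraries, with Benjamini-Hochberg adjustment at 0.05. Construct features were left out. A fold on this scale understates changes of low genes. The shared spread can make the SE and p-value too small for genes low in these 6 libraries but high elsewhere. For genes high here but near silent elsewhere it can make them too large. edgeR 4.0.16 and DESeq2 1.42.0 were run on the recovered reads. The limma script was tested on simulated data. Genes were named if on a fixed list, among the 6 largest in each direction with a mean of at least 100, among the 5 largest called per direction of a described list, or called in both tests against the other culture differences. Some others were chosen after values were seen. Members and lists were chosen with earlier results of these data known. 1 gene is not reported here.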

Additional observations from a re-analysis of the deposited data

Results flagged for a closer look

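Named genes are listed here where the difference between co-culture and monoculture of illuminated engineered cells itself differed from that in another comparison, by an interaction test in limma at an adjusted p under 0.05. Both tests share the 6 libraries. Values are differences of log2 differences, negative where the engineered cells under light had the lower one.

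Against dark engineered cells they were -0.94 for NANOG, 0.58 for ZIC5, 0.99 for STC1, -1.21 for FGF19, 1.48 for FOXJ1, -0.93 for TRIM22, -0.61 for MYLIP and -0.62 for FGFBP3. MYLIP and FGFBP3, like FOXJ1 and TRIM22, were named after their values were seen. The fall of FGFBP3 under light was not called by edgeR (adjusted p = 0.114) or DESeq2 (0.0564). Its limma call held in only 1 of 6 leave-outs. In 6 of the 8 genes the dark difference had the other sign, but in none did it pass the threshold. Selection by this interaction favours such signs, so the count does not show a reversal in the dark.

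Against illuminated wild-type cells, mesoderm, signalling and cadherin genes gave -4.35 for SP5, -3.86 for TBXT, -1.78 for MIXL1, -4.96 for EOMES, -0.67 for CDH2, -1.13 for BMP4, -1.53 for NODAL, -2.66 for WNT3, -2.18 for FGF8 and -1.12 for CER1, all of which were higher in co-culture in the wild-type cells. Pluripotency and epithelial genes gave 0.58 for SOX2, -1.34 for NANOG, -0.98 for CDH1, -0.76 for PROM1, -0.57 for ERBB3 and -0.67 for ESRG. Immediate early and chaperone genes gave -1.12 for FOS, 0.71 for MYC, 0.43 for DNAJB1 and -1.17 for JUN. Matrix, contractile and other lowered genes gave -1.65 for CYP1B1, -1.26 for DMD, -0.48 for AMOTL2, -0.89 for TAGLN, -1.63 for TNC and -1.94 for CAV1. The remaining genes gave 0.73 for ZIC5, 1.48 for STC1, -1.40 for FGF19, 1.67 for B3GAT2, 2.00 for APCDD1L, 1.16 for DBP and 4.18 for FOXJ1.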

How the results depend on the processing

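The 147 calls in illuminated engineered cells became 93 with a pseudocount of 8, 71 by edgeR, 393 with the GC and length trend removed, 2506 with that trend removed and library a left out, 6319 with estimated library weights, 20 with only the 12 engineered libraries, and 0 with only the 6 libraries by limma or edgeR. Leaving out 1 library gave 101 to 3455, the latter without co-culture library a. The 3 calls in dark engineered cells became 7 with a minimum of 50, 64 with only their libraries, 5 by edgeR, 28 by DESeq2, 5 after TMM rescaling, 61 with weights and 23 with the trend removed, and 3 to 5 in leave-outs. The 2820 in wild-type cells became 1088 with only their libraries and 5720 with weights, and 1231 (without monoculture replicate 2) to 3028 in leave-outs. The 13 differences from dark cells became 0 with only their libraries or the 12 engineered libraries, 8 by edgeR, 24 by DESeq2, 2072 with weights, 26 with the trend removed and 95 with library a also left out, and 0 to 80 in leave-outs. The 1061 differences from wild-type cells became 291 with only their libraries, 1795 by DESeq2, 5755 with weights, 1730 with the trend removed and 3797 with library a also left out, and 604 to 4471 in leave-outs. The cause was not tested. The fits on the GC trend, on 12 libraries and by edgeR on 6 were chosen after seeing the data. Of 70 named genes, 57 kept their side of the threshold by edgeR, 65 by DESeq2 and 44 with the 12 engineered libraries. With only the 6 libraries, limma and edgeR each called 0 genes. The 31 that kept their side there were therefore genes not called in the main fit. In the fits with calls, none changed sign among called values. No paired analysis was possible because the co-culture columns carry no replicate number.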
